A study of Mus musculus with 2 samples.

Results

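The 36 genes described here encode proteins that make ribosomes in the nucleolus, and they were taken by name from a list of ribosome biogenesis genes. The rule uses no measured value, although the list was drawn up with earlier results of these data known. Each of the 36 symbols matched 1 of the 55536 annotated genes. They were followed in total RNA of mouse neutrophils, white blood cells that take up and kill microbes. The study holds 1 group of 2 libraries and therefore no comparison of conditions. The cells carry the label of primary neutrophils from spleen of adult male mice aged 59 days, strain B6CASTF1/J, the F1 hybrid from a cross of C57BL/6 (mother) with CAST/EiJ (father). No treatment, transgene or deletion is named for either library. ERCC spike-in RNAs were added to 300 ng of RNA for each library, and the libraries were stranded and depleted of ribosomal RNA. The 2 libraries have separate biosample labels and 1 donor label, so nothing shows that they came from separate animals. The spread between them may therefore be technical.

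A ribosome is assembled from ribosomal RNA and ribosomal proteins. RNA polymerase I copies the ribosomal DNA into a long precursor, guide RNAs called snoRNAs direct chemical changes on it, and assembly factors cut and fold it into the precursors of the small and the large subunit. Mature neutrophils are known for dense chromatin and inconspicuous nucleoli, and the precursors from which they differentiate divide and hold prominent ones. Ribosomal RNA itself was depleted before sequencing, so these values describe the RNAs from the genes of the machinery and not its product.

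The label of neutrophil was checked against 10 defining markers. All 10 were found, and their levels summed to 63340 TPM in replicate 1 and to 59735 TPM in replicate 2. TPM is a level per length, scaled to the same total in each library, that can be compared between genes. Ly6g, a surface marker of mouse neutrophils, stood at 316 and 269 TPM. Markers of other cells were present at lower sums. Erythroid markers summed to 991 and 1054 TPM, primary granule genes of neutrophil precursors to 924 and 1195 TPM, B cell markers to 390 and 271 TPM, and T and NK cell markers to 64.4 and 59.8 TPM. Monocyte or macrophage markers summed to 1045 and 968 TPM, progenitor markers to 40.01 and 51.18 TPM, and cell cycle genes to 486 and 584 TPM. In the list of T and NK cell markers, Cd3d stood at 45.9 and 39.2 TPM and Nkg7 at 14.5 and 18.7 TPM. Cd2, Trac and Klrd1 each stood at 2.51 TPM or less. Cd3e was at 0 in replicate 2 and at 0.16 TPM in replicate 1. The part of these cells in the levels below was not tested. In bulk RNA, fewer cells of a type and less RNA per cell cannot be told apart.

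Several of these genes carry snoRNA genes inside their own span, and the sequences of some of those snoRNA genes are shown first. The annotation places 19 snoRNA genes inside 6 of the 36 genes, on the same strand. Among these, 8 lie base for base within an annotated transcript of the gene around them. The 4 below are those among the 8 with a name other than a provisional one, and they were chosen after the transcript values had been seen. They were read from the transcript sequences of annotation release M21, build mm10, and are written 5′ to 3′ on the strand of the gene. Capitals mark the letters TGATGA within the first 20 bases and CTGA within the last 15 bases of a box C/D snoRNA, or the letters ACA, 3 bases from the end, of a box H/ACA snoRNA.
Snora75, in Ncl, chr1:86351169-86351301, minus strand: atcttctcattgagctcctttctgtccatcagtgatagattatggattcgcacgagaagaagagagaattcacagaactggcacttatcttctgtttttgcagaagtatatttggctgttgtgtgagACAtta
Snord69, in Gnl3, chr14:31014287-31014366, minus strand: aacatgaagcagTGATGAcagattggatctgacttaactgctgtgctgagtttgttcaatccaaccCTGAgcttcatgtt
Snord19, in Gnl3, chr14:31016206-31016281, minus strand: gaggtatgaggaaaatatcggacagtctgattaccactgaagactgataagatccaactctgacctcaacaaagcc
Snord57, in Nop56, chr2:130278016-130278087, plus strand: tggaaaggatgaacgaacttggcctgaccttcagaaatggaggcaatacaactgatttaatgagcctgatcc
Snord19 and Snord57 have no capitals because they do not hold both sets of letters in those places. Of the 19 snoRNA genes, 8 held TGATGA and CTGA so placed, 2 held ACA with a length over 100 bases, and 9 held neither. Of all 1507 annotated snoRNA genes, 20.2% held the first pattern and 17.0% the other.

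Promoter sequences were searched for 30 of the 36 genes, those with an entry among RefSeq promoter windows of build GRCm38.p6. A window runs from 250 bases before the start to 50 bases after it. In all, 6 motifs were searched on both strands. CACGTG, the E-box that MYC and its partners bind, lay in the windows of 6 of the 30 genes, or 20%, against 8.09% of all 27025 symbols with a window. CCGGAAG, a core of ETS factor sites, lay in 10 of the 30, or 33.3%, against 9.93% of all symbols. CCAAT lay in 11, or 36.7%, against 41.1%, and TATAAA lay in 2, or 6.67%, against 15.7%. The palindromic NRF1 motif was in 0 of the 30 and in 1.07% of all symbols. A further palindrome that starts with TCTCG was in 0 of the 30 and in 0.525% of all symbols. These matches are letters only and are not shown to be bound. The shares of all symbols are not limited to genes expressed in these cells, and shares among expressed genes alone are not given.

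Upstream of the start, CACGTG was found in 2 of the genes, Nop2 once and Rrn3 at 2 places, and these stretches are shown because the E-box is the classical motif of this gene family. The other 4 genes held it after the start. CACGTG is in capitals, and all 3 stretches lie on the plus strand in GRCm38.p6.
Nop2, chr6:125131796-125131855: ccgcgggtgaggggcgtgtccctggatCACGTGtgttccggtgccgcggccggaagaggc
Rrn3, chr16:13780457-13780516: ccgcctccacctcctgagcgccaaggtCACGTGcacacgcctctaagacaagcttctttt
Rrn3, chr16:13780624-13780683: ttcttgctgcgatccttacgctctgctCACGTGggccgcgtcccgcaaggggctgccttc
The E-box began 60 bases before the start in Nop2, and 215 and 48 bases before it in Rrn3. The stretch of Nop2 also holds CCGGAAG, which does not overlap the E-box. Nop2 stood at 9.29 and 8.03 TPM and Rrn3 at 5.89 and 5.96 TPM, so neither was among the more abundant of the 36 genes.

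All 36 genes were expressed at 1 TPM or more in both libraries, and 23 reached 10 TPM in both. Replicate 1 gave a median of 12.3 TPM over the 36 genes, and replicate 2 gave 12.6 TPM. The 10198 protein-coding genes at 1 TPM or more in both libraries had medians of 13.4 and 13.7 TPM. Of the 36 genes, 14 lay above the median of these protein-coding genes, and their median percentile was 47.1. The lowest gene lay at percentile 15.9 and the highest at 92.9. Ribosome biogenesis genes were thus spread over the middle of the range of expressed genes. The 36 genes together held 25040 reads in replicate 1, or 0.133% of all reads (95% exact Clopper-Pearson interval 0.131% to 0.135%). In replicate 2 they held 25655 reads, or 0.139% (interval 0.137% to 0.141%). These intervals cover counting error only, and reads without molecular identifiers are not independent molecules. A single gene held from 69 to 4054 reads in a library.

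The nucleolar chaperones Npm1 and Ncl had the highest TPM of the 36 genes over all transcripts. Npm1 encodes nucleophosmin, which carries ribosomal proteins and preribosomes, and stood at 93.2 TPM in replicate 1 and 103 TPM in replicate 2. Ncl encodes nucleolin, an RNA-binding protein of the nucleolus, and stood at 72.3 and 75.1 TPM. Npm1 and Ncl together held 24.1% and 24.8% of the summed TPM of the 36 genes. Nolc1 encodes a chaperone of snoRNA particles and stood well below both at 11.9 and 12.8 TPM. The 3 genes did not overlap each other in their 2 values.

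Proteins of the box C/D particle place methyl groups on the ribose of ribosomal RNA. Nop56, a scaffold of the particle, stood at 42.2 and 41.1 TPM. Fbl encodes fibrillarin, the methyltransferase, and stood at 36.92 and 39.97 TPM. Nop58, the other scaffold protein, stood at 27.8 and 33.6 TPM. The 3 genes stayed within 1.52-fold of each other in replicate 1 and 1.22-fold in replicate 2.

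Proteins of the box H/ACA particle turn uridine into pseudouridine. Dkc1 encodes dyskerin, the pseudouridine synthase, and stood at 14.4 and 12.1 TPM. Its partner Nhp2 stood at 17.7 and 18.7 TPM. Nop10, a small protein of the same core, stood at 11.1 and 13.1 TPM, and Gar1, the last core protein, at 13.6 and 14.4 TPM. In both libraries every one of the 3 box C/D genes lay above every one of the 4 box H/ACA genes, with 27.8 to 42.2 TPM against 11.1 to 18.7 TPM. Counted in protein-coding transcripts alone, the ranges overlapped, with 11.9 to 29.6 TPM against 5.33 to 17.7 TPM.

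RNA polymerase I and its factors ranged widely. Ubtf, which opens and bends ribosomal DNA for transcription, was the highest at 38.1 and 37.8 TPM. Polr1a, the largest subunit of the polymerase, stood at 21.03 and 23.53 TPM. Polr1b, the second-largest subunit, stood at 5.39 and 5.03 TPM, and Polr1c, a subunit shared with RNA polymerase III, at 10.4 and 12.3 TPM. Over all transcripts, the genes for subunits of 1 enzyme were thus unequal in level, and Polr1b lay below both others in both libraries. In protein-coding transcripts alone, Polr1a stood at 5.88 and 4.78 TPM, Polr1b at 2.99 and 3.33 TPM, and Polr1c at 4.73 and 8.09 TPM. Counted so, Polr1b was again below both others, but Polr1a and Polr1c overlapped. Rrn3, the factor that makes the polymerase able to initiate, stood at 5.89 and 5.96 TPM. Tcof1 encodes treacle, which recruits the polymerase, and stood at 12.7 and 12.1 TPM. Mybbp1a, a nucleolar regulator of ribosomal DNA transcription, stood at 19.3 and 20.3 TPM.

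Genes of small subunit processing had the lowest median of the role groups, 5.73 and 6.72 TPM over 8 genes. Heatr1, which acts early on the precursor and supports its transcription, was the highest at 15.4 and 19.0 TPM. Wdr43 and Wdr75 belong to the same early complex as Heatr1. Wdr43 stood at 11.1 and 12.8 TPM. Wdr75 stood at 5.99 and 8.68 TPM. Utp20, a very large protein of the same processome, stood at 7.96 and 6.98 TPM. Rrp9 is a protein of the U3 snoRNA particle that guides early cleavage. Rrp9 stood at 4.92 and 4.60 TPM. Rrp12, an export and maturation factor, stood at 5.46 and 6.46 TPM. Nop14, an assembly factor, stood at 3.69 and 4.63 TPM, and Ddx10, an RNA helicase, at 5.04 and 5.28 TPM.

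The PeBoW complex of 3 proteins matures the large subunit. Pes1 encodes pescadillo and stood at 14.9 and 12.0 TPM. Bop1, which binds both other proteins of the complex, stood at 10.5 and 9.48 TPM. Wdr12, the last member of the complex, stood at 3.33 and 4.69 TPM. Wdr12 lay below its partners in both libraries.

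Among other genes of large subunit processing, Rrp1 stood out in level. Rrp1, a nucleolar protein, stood at 53.8 and 53.6 TPM, place 3 among the 36 genes. Gnl3 encodes nucleostemin, a nucleolar GTPase, and stood at 30.1 and 25.7 TPM. Ddx21, an RNA helicase of the nucleolus, stood at 19.0 and 20.6 TPM. Noc2l, a factor of early large subunit particles that also acts in the nucleus as a repressor, stood at 13.02 and 14.14 TPM. Nip7 is a factor with a role in both subunits. Nip7 stood at 10.6 TPM in each library. Nop2, a methyltransferase of the large subunit RNA, stood at 9.29 and 8.03 TPM. Rrs1, which helps to bring in a small ribosomal RNA, stood at 5.18 and 5.25 TPM. Nop16 was the lowest of the group by mean at 3.40 and 3.81 TPM.

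When the 36 genes were ordered by mean level, 21 of the 35 pairs of neighbours overlapped in the values of the 2 libraries and 14 did not. In the gene table, Npm1 lay above Ncl, Ncl above Rrp1, Rrp1 above Nop56, and Nop56 above Fbl without overlap. Fbl and Ubtf overlapped, and so did Nop58 and Gnl3. In the second deposited transcript table, Npm1 was again the highest, but Ncl at 66.1 and 62.9 TPM overlapped with Rrp1 at 63.0 and 55.6 TPM. Nop56, at 29.0 and 31.8 TPM there, lay below Ubtf at 43.9 and 41.7 TPM.

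**Figure D1:**
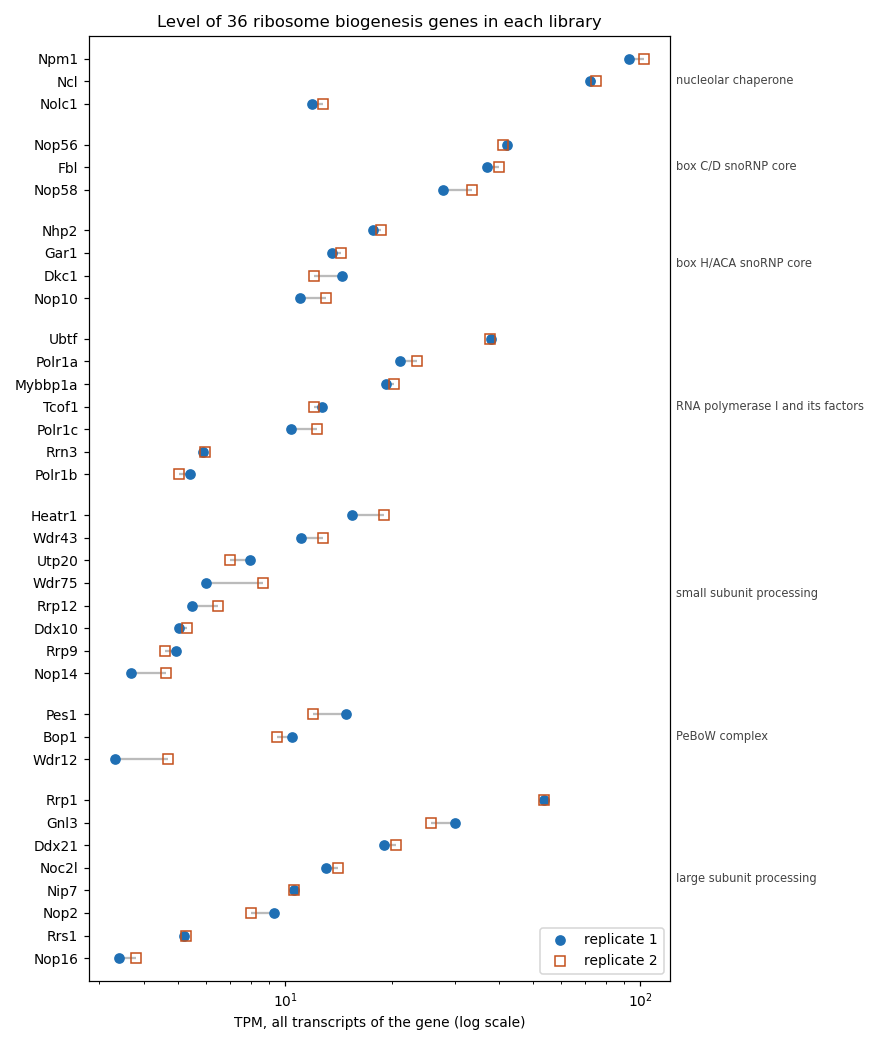
TPM of each of the 36 genes on a log axis, by role, with filled circles for replicate 1, open squares for replicate 2 and a grey line between them. The levels run from 3.33 TPM for Wdr12 to 103 TPM for Npm1, and the box C/D genes all lie above the box H/ACA genes.

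The 2 libraries were then compared gene by gene, to show how closely these levels repeat. For this, reads were used in place of TPM. A gene was called different at an adjusted p of at most 0.05 in the exact conditional binomial test and a ratio of at least 2-fold. The test holds counting error only and compares these 2 libraries, not conditions. Of the 36 genes, 0 were called in either direction, against 1.57% of 12434 genes called higher in replicate 2 and 0.684% called lower. By adjusted p alone, 4 of the 36 passed as higher in replicate 2 and 1 as lower, against 11.8% and 12.9% of all genes tested. These were 11.1% and 2.78% of the 36 genes. With other scalings that split was 2 higher and 1 lower with DESeq2 size factors, 6 and 0 with the total of protein-coding genes, and 1 and 2 with the spike-in total. At an unadjusted p of at most 0.05, 9 of the 36 passed, or 25.0%, against 34.5% of all genes tested. A negative binomial exact test in edgeR, which takes its spread from the same 2 libraries, passed 0 of the 36 by adjusted p and 0 by unadjusted p, against 1.21% of 13667 genes by adjusted p.

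The ratios of replicate 2 over replicate 1 were small. They ran from -0.14 to 0.29 on the log2 scale, and all 36 genes lay under 1.5-fold, as did 93.0% of all genes tested. The median was 0.10, against -0.00056 for all genes tested. The ratio was above 0 in 28 of the 36 genes and in 49.9% of all genes tested. The count of 28 became 22 when the spike-in total set the scale, which moved the median of all genes to -0.08 and that of the 36 genes to 0.02. Summed over the 36 genes, reads were 1.05 times as many in replicate 2 per read of the library (95% counting interval 1.03 to 1.07). The highest upper bound of a single gene was 1.68-fold, for Nop16, and the lowest lower bound was 0.764-fold, for Nip7.

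The highest ratios belonged to Wdr75, Polr1c and Nop56. Wdr75 had 172 reads in replicate 1 and 205 in replicate 2, a ratio of 1.22-fold (interval 0.993 to 1.51, adjusted p = 0.159 in the exact conditional binomial test). Polr1c had 182 and 216 reads, also 1.22-fold (0.995 to 1.49, adjusted p = 0.147 in the same exact test). Nop56 had 760 and 897 reads, 1.21-fold (1.10 to 1.34, adjusted p = 0.0010 in the exact conditional binomial test). Of these, Nop56 alone passed the adjusted p, and its ratio stayed far under 2-fold. The other 3 genes that passed as higher in replicate 2 by adjusted p alone were Npm1, Ncl and Nolc1, with ratios of 1.08-fold, 1.07-fold and 1.17-fold.

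The lowest ratios belonged to Polr1a, Gnl3 and Nop2. Polr1a had 1774 reads in replicate 1 and 1568 in replicate 2, a ratio of 0.907-fold (0.846 to 0.971, adjusted p = 0.0236 in the exact conditional binomial test). Gnl3 had 648 and 578 reads, 0.915-fold (0.816 to 1.02, adjusted p = 0.280 in the same exact test). Nop2 had 398 and 358 reads, 0.923-fold (0.798 to 1.07, adjusted p = 0.482 in the exact conditional binomial test). Polr1a was the 1 gene that passed as lower by adjusted p alone.

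Other features of the samples moved between the libraries beside these ratios. Of 12 erythroid markers, 8 were called higher in replicate 2 and 11 had a ratio above 0, with a median log2 ratio of 1.69. The globin genes Hba-a1 and Hbb-bs, which had the highest TPM of that list, had log2 ratios of 0.09 and -0.37. Alas2 had 0.009. Of 7 B cell markers, 4 were called lower, with a median of -1.18. The 5 measured primary granule genes and the 7 cell cycle genes all had ratios above 0, with medians of 0.36 and 0.17, and none was called. Progenitor markers had a median of 0.15, with 4 of 5 ratios above 0. Monocyte or macrophage markers had a median of -0.18, with 0 of the 5 tested above 0. T and NK cell markers had a median of -0.38, with 1 of the 3 tested above 0. The neutrophil markers had a median of -0.19, with 3 of 10 above 0. The part of all these markers in the ratios of the 36 genes was not tested.

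**Figure D2:**
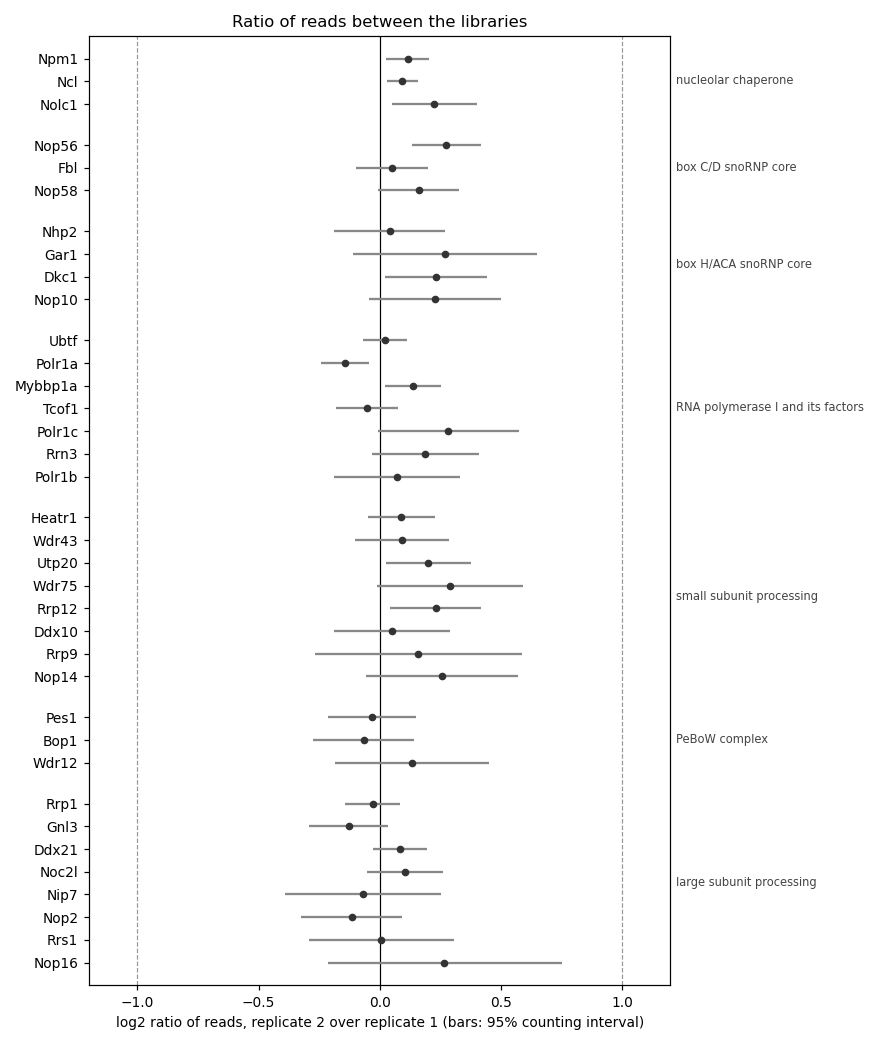
Log2 ratio of reads, replicate 2 over replicate 1, for each of the 36 genes by role, with bars for the 95% counting interval and dashed lines at 2-fold. All points lie between -0.14 and 0.29, no interval reaches 2-fold, and 27 of the 36 intervals hold a ratio of 1.

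A ratio of TPM did not always follow the ratio of reads. For 7 of the 36 genes the signs were opposite, namely Nop56, Dkc1, Polr1a, Polr1b, Ubtf, Rrp9 and Utp20. TPM divides reads by an effective length, which the estimator averages over the transcripts it assigns. Dkc1 had 353 reads in replicate 1 and 404 in replicate 2, but its TPM went from 14.4 to 12.1. Its effective length was 1293 bases in replicate 1 and 1832 in replicate 2. Polr1a moved the other way, with fewer reads and a higher TPM in replicate 2, and an effective length of 4456 bases in replicate 1 and 3645 bases in replicate 2. Among the 36 genes, Dkc1 had the largest gap between its log2 ratios of TPM and of reads, 0.49.

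In the transcript tables, the reads of a gene are shared out among its annotated transcripts. Total RNA holds unspliced and partly spliced RNA along with messenger RNA. The annotation sorts transcripts into classes, of which protein coding, retained intron, nonsense-mediated decay and processed transcript occur here. The median share of TPM in protein-coding transcripts was 63.0% in replicate 1 and 71.9% in replicate 2 over the 36 genes. Over the 10198 expressed protein-coding genes it was 79.7% and 80.5%. The comparison depends on the annotation, since 26 of the 36 genes have an annotated retained-intron transcript. Those 26 had medians of 53.8% and 69.7%, and the 6355 expressed genes with such a transcript had 69.3% and 70.8%. By reads in place of TPM, the medians of the 36 genes were 87.9% and 91.7%, against 90.8% and 91.2% for expressed protein-coding genes. Shares by TPM weigh short transcripts more, and the 36 genes lay near other genes by reads. Genes under 50% coding by TPM in both libraries numbered 7 of the 36, or 19.4%, against 13.6% of expressed protein-coding genes and 18.4% of those with a retained-intron transcript. The second transcript table gave 8 such genes among the 36, and 5 were under 50% in both tables, namely Ncl, Polr1a, Wdr43, Rrp1 and Gnl3. The 6 genes at 100% in both libraries have annotated transcripts of no other class.

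**Figure D3:**
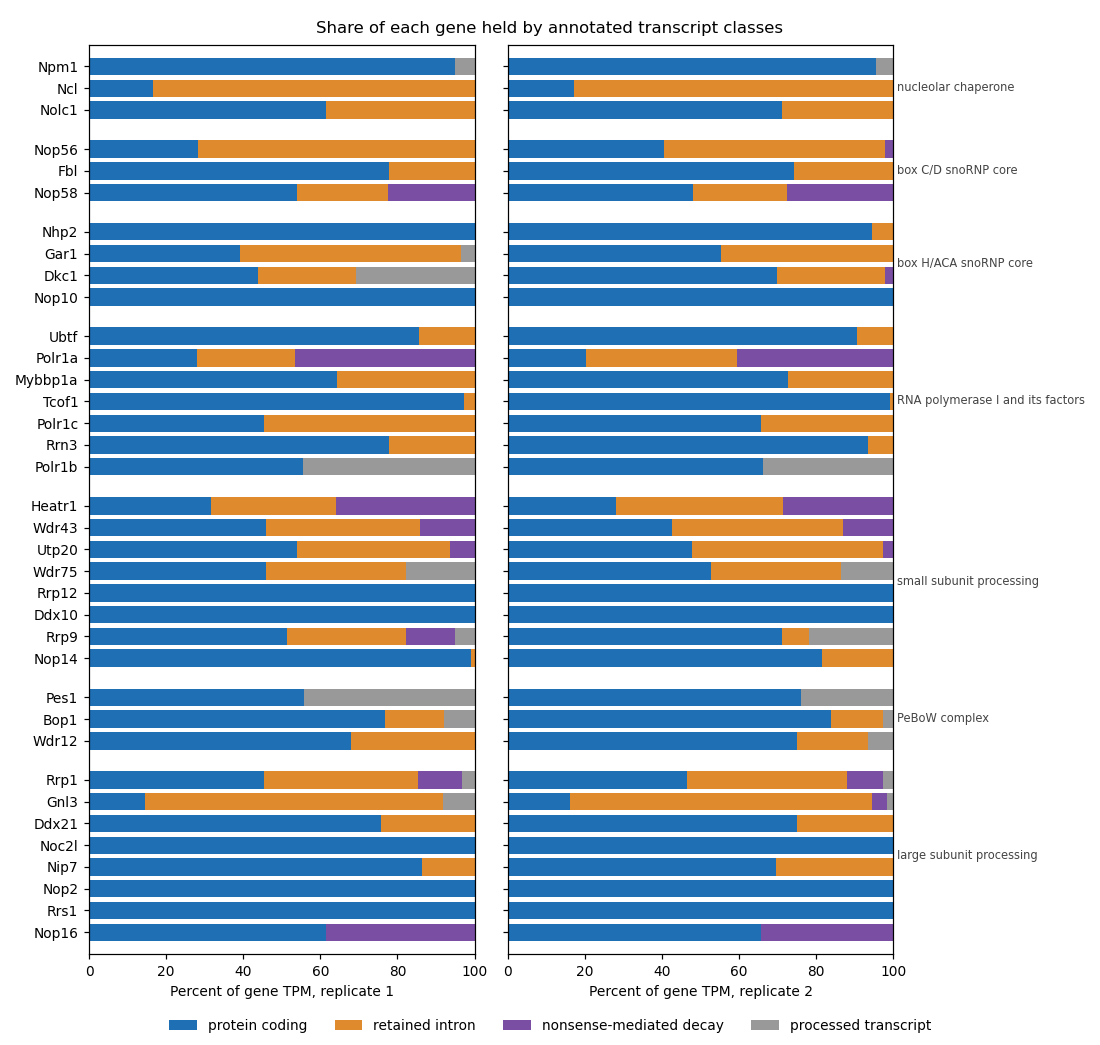
Percent of each gene's TPM held by protein coding, retained intron, nonsense-mediated decay and processed transcripts, as stacked bars, in replicate 1 on the left and replicate 2 on the right. Gnl3 and Ncl have the smallest protein-coding shares in both libraries, under 20%.

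In the main transcript table Gnl3 had the lowest protein-coding share, 14.5% in replicate 1 and 16.2% in replicate 2. Gnl3 lies on chromosome 14 from 31012433 to 31019152 and has 14 annotated transcripts. Its full-length coding transcript Gnl3-201, of 15 exons, held 2.98 and 2.76 TPM. The single-exon transcript Gnl3-207, which holds Snord19, had 4.14 and 4.05 TPM. Gnl3-211, which holds Snord69, had 3.16 and 2.36 TPM. By reads the share of Gnl3 was 17.9% and 17.8%. In the second transcript table it was 23.4% and 13.3%, and Polr1a was lower there in both libraries, so the place of Gnl3 as the lowest depends on the table.

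Ncl followed with 16.6% and 17.1% in protein-coding transcripts. Ncl lies on chromosome 1 from 86344719 to 86359400. The transcript Ncl-202 held 36.2 and 39.0 TPM, or 50.1% and 51.9% of the gene, and is classed as a retained-intron transcript. Its exons nevertheless cover 100% of the 2121 coding bases of Ncl-201, in 3072 bases and 12 exons. Ncl-201, the coding transcript, is annotated with 8202 bases and 14 exons and held 10.4 and 11.5 TPM. Taking every transcript that covers the whole coding sequence, Ncl reached 64.5% and 67.2% of TPM and 93.2% and 94.1% of reads. Coverage of the coding bases does not show an unbroken reading frame, and introns kept between those bases were not examined. Neither the class name nor this coverage therefore tells how much of the Ncl RNA held an intact coding sequence. Ncl-206, which holds Snora75, took 18.5% and 17.2% of TPM but 2.61% and 2.34% of reads, with a length of 502 bases. Ncl-206 had 13.4 and 12.9 TPM, against 6.35 and 5.58 TPM in the second transcript table.

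Polr1a had 28.0% and 20.3% of TPM in protein-coding transcripts. Polr1a lies on chromosome 6 from 71909053 to 71984935. Its coding transcript Polr1a-201, of 9216 bases, held 5.88 and 4.78 TPM. Transcripts of the nonsense-mediated decay class held 46.7% and 40.7% of its TPM, the largest share of that class among the 36 genes in both libraries. By reads, the protein-coding share was 57.2% and 50.7%. In the second transcript table it was 12.6% and 11.5% of TPM, the lowest of the 36 genes there.

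Heatr1, on chromosome 13 from 12395027 to 12440289, had 31.7% and 28.1%. By reads, its share was 74.4% and 75.5%. Heatr1-207, a retained-intron transcript of 373 bases, had 10.2 reads in replicate 1 and 24.2 in replicate 2. Those few reads made 12.8% and 25.6% of the gene's TPM. In the second transcript table Heatr1-207 had 0.35 and 0.39 TPM, and the protein-coding share of Heatr1 was 45.0% and 56.7%.

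Nop56, on chromosome 2 from 130274430 to 130279313, had 28.3% and 40.4%. Its full-length coding transcript Nop56-202 had 169 reads in replicate 1 and 386 in replicate 2, while the gene as a whole had 760 and 897. Nop56-215, a retained-intron transcript of 320 bases, had 49.7 and 31.4 reads but 28.2% and 19.0% of TPM. Nop56-212, which holds Snord57 and covers 100% of the coding bases, had 176 and 278 reads. It has 5 exons against 12 in Nop56-202, and whether its reading frame is unbroken was not examined. In the second transcript table the protein-coding share of Nop56 was 49.5% and 57.6%. In the main table, the split of Nop56 among its 19 transcripts differed between the libraries by more than the sum did.

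Levels in protein-coding transcripts alone reorder the genes. The 36 genes then had a median of 6.81 TPM in replicate 1 and of 7.99 TPM in the other library. Npm1 kept the first place with 88.5 and 97.9 TPM. Ncl moved from the second to place 11 with 12.0 and 12.8 TPM. That place follows the class names, which leave out Ncl-202. With Ncl-202 included, transcripts that cover the whole coding sequence held 64.5% and 67.2% of Ncl TPM. By that measure the median over the 36 genes was 48.7% in replicate 1 and 56.2% in replicate 2, and Npm1 had 25.5% and 21.4%. The genes were not ordered by it, so it gives Ncl no other place. Gnl3 moved from place 8 to place 29 with 4.38 and 4.16 TPM. Ubtf rose in the order to the second place with 32.7 and 34.3 TPM.

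**Figure D4:**
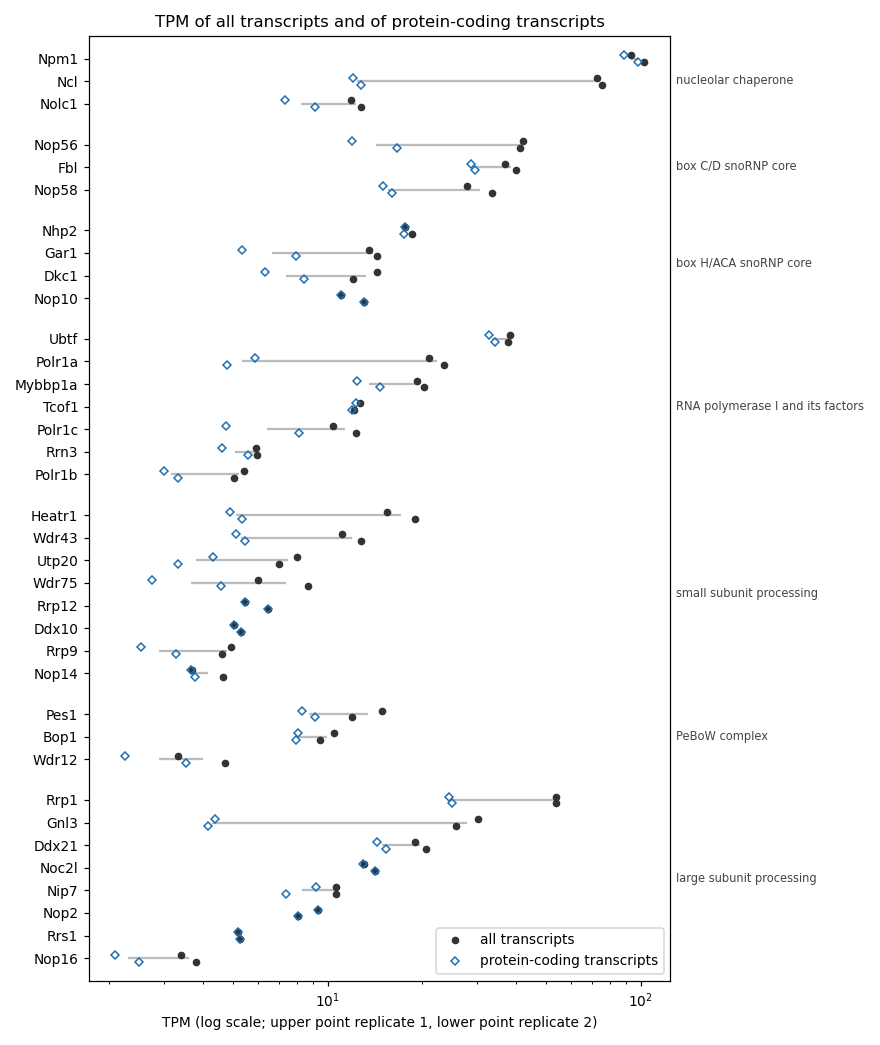
TPM of all transcripts (filled circles) and of protein-coding transcripts (open diamonds) for each of the 36 genes on a log axis, with the upper point for replicate 1 and the lower for replicate 2. The gap is widest for Gnl3 and Ncl and is absent for the 6 genes whose annotated transcripts are all protein coding.

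Genes that hold a snoRNA gene were compared with the rest, since many snoRNAs are cut from the introns of such host genes. The 6 host genes were Ncl, Nop56, Nop58, Dkc1, Wdr43 and Gnl3, or 16.7% of the 36 genes, against 1.86% of expressed protein-coding genes. Their median protein-coding share of TPM was 36.05% and 41.53%, against 76.3% and 75.0% for the other 30 genes. All 6 have a retained-intron transcript, and the 20 other genes of the 36 with one had medians of 66.1% and 71.9%. Over the whole table, the 190 expressed host genes had medians of 69.0% and 73.0%, against 79.7% and 80.5% for all expressed protein-coding genes. Among genes with a retained-intron transcript the gap was narrower. The 140 expressed host genes with a retained-intron transcript had medians of 66.4% and 68.1%, against 69.4% and 70.9% for the 6215 non-host genes with one. Retained-intron transcripts that hold a snoRNA took 32.0% and 29.2% of the TPM of Gnl3. They took 16.9% and 15.7% of the TPM of Nop56, and 14.4% and 13.7% of that of Nop58. Dkc1 and Wdr43 have no annotated transcript that holds their snoRNA genes.

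The mature snoRNAs cannot be followed in these tables. Of the 19 snoRNA genes, 16 are 100 bases long or less. The deposited tables give each feature an effective length of 100 bases less than its own, and those 16 genes therefore receive no reads. Of the 3 longer ones, Gm25520 in Dkc1 alone had reads, with 2 in replicate 1 and 1 in replicate 2, under the 3 reads that a count of 0 allows. Snora75 and Gm24451, of 133 bases each, had 0 reads.

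For 11 of the 36 genes, an annotated protein-coding gene on the other strand overlaps the span. Nop56 overlaps Idh3b, Dkc1 overlaps Mpp1, and Gnl3 overlaps Pbrm1, which had 2466 and 2502 reads. The libraries keep strand per the labels, but the sources used here do not give whether the estimation used it. The part of such reads in the levels was not tested. The posterior SD of the count was 16.3 reads for Npm1, 10.9 for Fbl and 5.45 for Nop56 in replicate 1. In replicate 2 it was 16.1, 14.9 and 8.78 reads. The second transcript table gave Fbl 28.6 and 25.9 TPM and Nop56 29.0 and 31.8 TPM, below the gene table, so these levels depend on the estimator. For Npm1 it gave 99.2 and 103 TPM.

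The rest of the pathway was taken from a list of 120 further ribosome biogenesis genes, all of which matched. Of these, 119 reached 1 TPM in both libraries, and Rpp40, a subunit of ribonuclease P, stood at 0.86 and 0.96 TPM. Their median was 9.90 and 9.68 TPM. The highest was Taf1d, a subunit of the factor that selects the ribosomal DNA promoter, at 206 and 196 TPM. Taf1d holds 8 snoRNA genes, and its protein-coding transcripts held 0.534% and 1.35% of its TPM. Eif6, which keeps the new large subunit from joining too early, stood at 41.6 and 40.1 TPM. Ddx24, an RNA helicase, stood at 33.7 and 37.7 TPM.

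Between the libraries, 1 of the 120 genes was called higher in replicate 2 and 0 were called lower, against 1.57% and 0.684% of all genes tested. That gene was Mrm3, a methyltransferase of mitochondrial ribosomal RNA, with 27 reads in replicate 1 and 64 in replicate 2. Its ratio was 2.41-fold (interval 1.53 to 3.97, adjusted p = 0.000553 in the exact conditional binomial test). Mrm3 did not pass by adjusted p in edgeR's exact test, which takes its spread from the same 2 libraries. By adjusted p alone, 6 of the 120 passed as higher and 2 as lower, against 11.8% and 12.9%. That split was 12 and 2 with the total of protein-coding genes and turned to 3 and 11 with the spike-in total. The next highest ratios were 0.40 for both Pno1 and Noc4l, which act on the small subunit, on the log2 scale. The lowest were -0.48 for Utp23, -0.37 for Cd3eap and -0.27 for Taf1a. The median ratio of the 120 genes was 0.03 on the log2 scale, and 71 of the 120 had a ratio above 0. With the spike-in total the median was -0.05, and 45 of the 120 had a ratio above 0.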

How the data were processed

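Per the labels, 2 libraries of 1 group were sequenced, so no conditions were compared. Expected counts, TPM values and estimated counts were deposited by the authors per gene and per transcript, on mm10 with annotation M21, per the deposited file lists. The posterior SD of a gene's count (a signal in reads) and the percent of a gene's TPM per transcript were deposited by the authors in the same tables. The sources used here do not give the aligner and estimators. The 36 genes, the list of 120 further genes and the marker lists were chosen with earlier results of these data known. Every one of the 36 genes is named with its TPM, and fuller values are given for the 3 highest and 3 lowest ratios, any called gene and the 5 lowest protein-coding shares.

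Expected counts were rounded and compared by an exact two-sided conditional binomial test (scipy 1.17.1) where both libraries together held 50 reads or more, and p-values were adjusted by Benjamini-Hochberg over all genes tested. Offsets were the 18060581 and 17609100 reads of annotated genes other than ribosomal RNA genes, of 18836092 and 18444369 reads in all. Ratios add 0.5 to each count. A quasi-likelihood fit needs replicates within groups, so edgeR 4.0.16 was used with its exact test at 1 common dispersion (biological coefficient of variation 11.6%). That dispersion came from the same 2 libraries, so a difference between them widens the spread it is tested against. Both tests were tested on simulated data. Protein-coding shares use the deposited transcript tables. Protein sequences were not used here. Alternatives included TMM and DESeq2 1.42.0 scaling, other count minimums and fold thresholds, the second transcript table and leaving out a library; spike-in scaling and protein-coding TPM were added after seeing the data.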

Additional observations from a re-analysis of the deposited data

How the results depend on the processing

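None of the 36 genes was called at 2-fold under any scaling, count minimum or table tried, nor at 1.5-fold; dropping the fold threshold gave 5. Of the 120 other genes, 1 was called, 0 with the second transcript table or edgeR's exact test, and 8 with no fold threshold. The median log2 ratio of the 36 genes was 0.10, and 0.020 with the spike-in total. All 36 reached 1 TPM in every table, and 23 reached 10 TPM. Their median TPM, averaged over the libraries, was 12.4, and it was 12.99 by posterior mean TPM, 14.6 in the second transcript table, 26.9 when rescaled over protein-coding genes and 7.40 in protein-coding transcripts. Their share of reads was 0.136% on average, 0.172% of protein-coding reads and 0.145% in the second transcript table. Their protein-coding share was 67.4% by TPM and 89.8% by expected counts. Leaving out either library gave 36 genes at 1 TPM, a median of 12.3 to 12.6 TPM, 0.133% to 0.139% of reads and a protein-coding share of 63.0% to 71.9%. It left no comparison between libraries. No paired analysis was possible because the study has 1 group. Depth limits the low genes most: Nop16, with 69 and 81 reads, had an upper bound of 1.68-fold from counting error alone.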
